A study of Mus musculus with 9 samples.

Results

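The genes described here are 7 genes of antigen presentation on major histocompatibility complex (MHC) class II: the chains H2-Aa, H2-Ab1 and H2-Eb1, the peptide-exchange factors H2-DMa and H2-DMb1, the invariant chain gene Cd74, and Ciita. They were taken by name, not by their values, and 8 probes on the array matched them through RefSeq accessions, out of 20660 named genes in all. The samples were mouse colon organoids, colon epithelium grown in culture as small hollow structures, and RNA of each was read on its own single-colour Agilent array. Of the 9 arrays 3 held untreated organoids (0 weeks), 3 held organoids kept with inflammatory reagents for 12 weeks, and 3 held organoids kept so for 60 weeks. The labels name neither the reagents, their doses, the mouse strain, its age nor its genotype, and they do not say whether the replicates came from separate animals or cultures, so the spread between them may be technical. No untreated culture was kept to 12 or 60 weeks among these samples, so treatment and time in culture cannot be told apart.

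MHC class II molecules display peptides from outside the cell to CD4+ T cells. An alpha and a beta chain (H2-Aa with H2-Ab1, or H2-Eb1 with its own partner) assemble in the endoplasmic reticulum around the invariant chain Cd74, proteases cut Cd74 down to a short peptide that fills the groove, and the H2-DM heterodimer exchanges that peptide for an antigenic one. Dendritic cells, macrophages and B cells make class II constitutively, while intestinal epithelial cells make it when interferon-gamma induces Ciita, the transactivator that docks on a complex bound to the conserved X and Y boxes of class II promoters.

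The X and Y boxes are shown here because Ciita acts through them at class II promoters. RefSeq promoter windows (GRCm38.p6, from 250 bases before to 50 after an annotated start) were held for 4 of the 7 genes: H2-Aa, H2-Eb1, H2-DMb1 and, with 2 starts, H2-DMa. The search was for GNAAC, the core of the X box, followed after 26 to 30 bases by ATTGG, the inverted CCAAT of the Y box, on both strands. Capitals mark the X core and then the Y box.
H2-Eb1: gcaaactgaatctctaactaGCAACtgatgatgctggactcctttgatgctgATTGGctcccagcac
H2-Aa: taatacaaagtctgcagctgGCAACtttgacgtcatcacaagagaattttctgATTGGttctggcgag
H2-DMb1: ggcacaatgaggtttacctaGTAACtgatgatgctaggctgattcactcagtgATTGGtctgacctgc
The stretches lie at chr17:34305756-34305822 (plus strand), chr17:34287857-34287924 (minus strand) and chr17:34153077-34153144 (plus strand), with the X core starting at positions -91, -81 and -94 from the start.

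All 3 genes hold the pair, in the order and range of spacing that the search required, with 27 bases between the boxes in H2-Eb1 and 28 in H2-Aa and H2-DMb1. Of 32851 promoter windows of the same length, 0.886% hold such a pair, and ATTGG alone, which is part of the pair, is in 37.4%. Between its boxes H2-Aa also has TGACGTCA, a cyclic AMP response element, which is in 1.79% of all windows. Neither start of H2-DMa holds the pair in its window, and the interferon-responsive TTCNNNGAA (8.30% of windows) is in none of the 5 windows of these genes. A match is a description of letters, and its absence from a window says nothing of the factor.

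**Figure D1:**
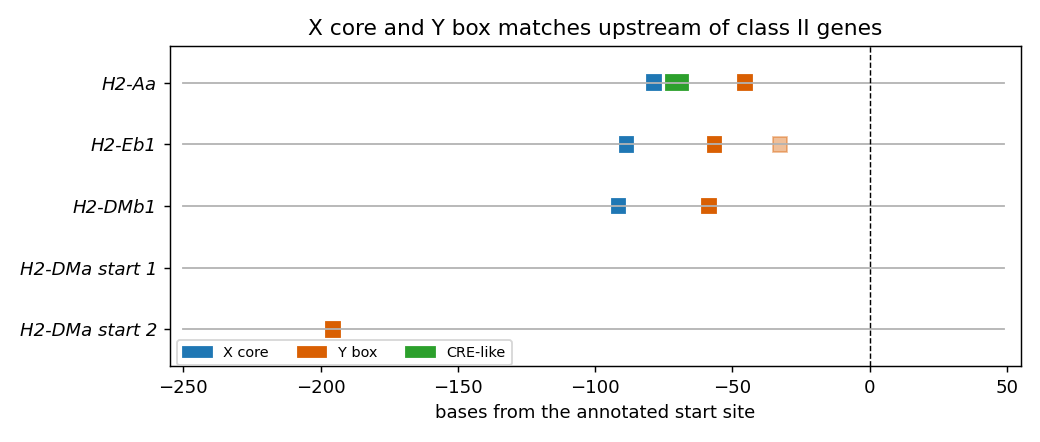
Position of the X core (blue), the Y box ATTGG (orange, pale on the minus strand) and TGACGTCA (green) in 5 promoter windows, in bases from the annotated start (dashed line). H2-Aa, H2-Eb1 and H2-DMb1 carry the X core at -94 to -81 with a Y box 27 or 28 bases further on, and the H2-DMa windows do not.

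Levels below are log2 signals relative to the 75th percentile of the array, so 0 is a probe as bright as that percentile; they are given for replicates 1, 2 and 3 in that order, and levels of different genes are not compared, since each rests on its own probe. A probe is above background where the scanner software called it well above background, and 49.2% to 52.7% of probes were so on an array. To be tested, a gene had to be above background in 1 group or more on 2 or more of its 3 arrays. It was called at a Benjamini-Hochberg adjusted p under 0.05 over 14034 genes in limma's moderated test. Changes are log2 fold changes ± SE. Replicate 2 of 12 weeks stood apart from the other 2, and the SD between replicates had a median over genes of 0.21 at 12 weeks, 0.11 at 0 weeks and 0.15 at 60 weeks. By these rules 5 of the 7 genes were tested and H2-Aa and Ciita were too dim. H2-Ab1 entered the tests through the treated groups only, since none of its 0 weeks arrays was above background, so its entry already favours a rise.

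**Figure D2:**
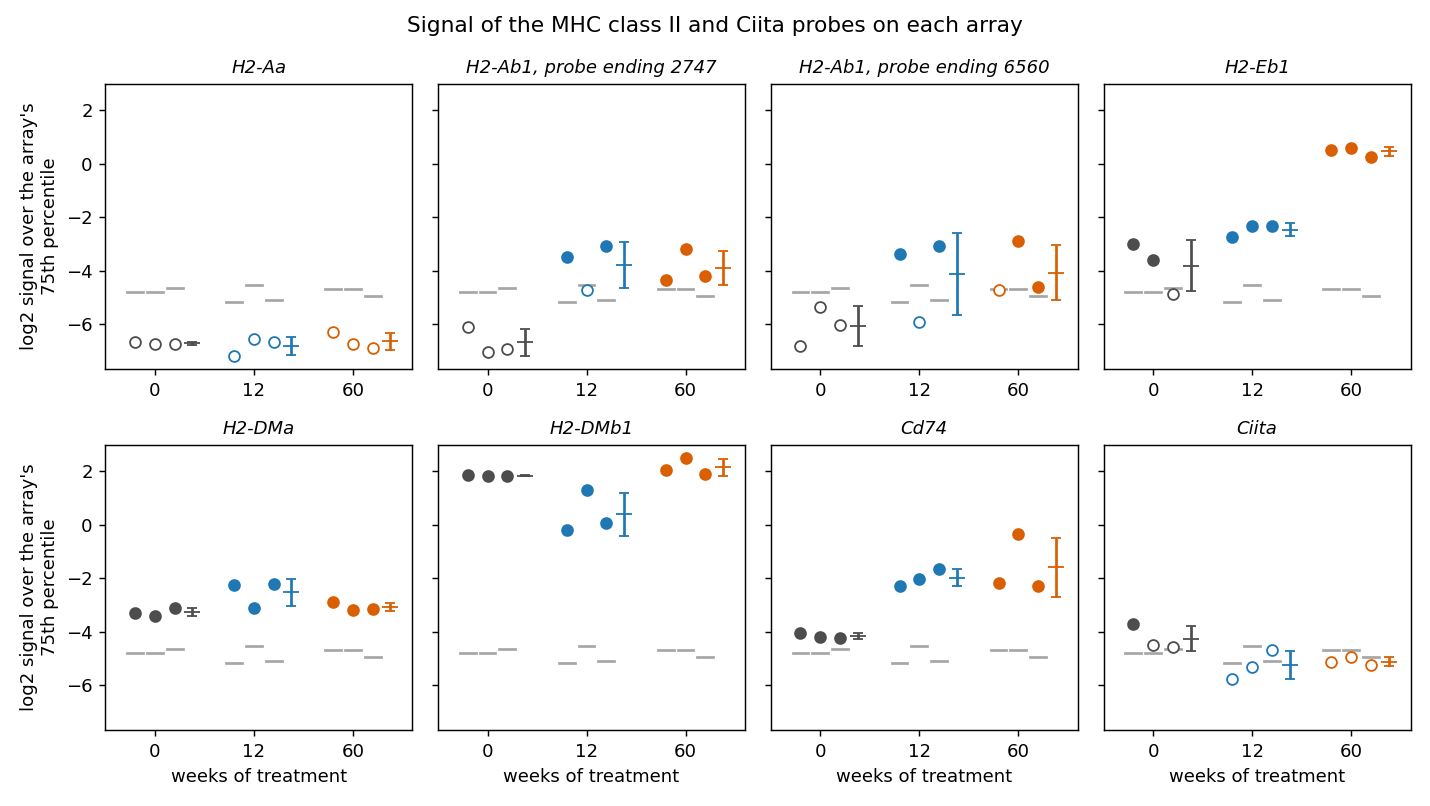
Log2 signal (y axis) of the 8 probes on each of the 9 arrays by weeks of treatment (x axis); filled points were above background, open points were not, grey ticks give the lowest signal called above background on that array, and the bar beside each group is the mean with its SD (n = 3). H2-Eb1 lies at 0.24 to 0.60 on the 60 weeks arrays and below -2 on all others, while H2-Aa is open on all 9.

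H2-Eb1 and Cd74 stood higher at both treated times, H2-DMb1 was lower at 12 weeks alone, and neither H2-Aa nor Ciita was above background on any treated array. At 12 against 0 weeks, 3 of the 5 tested genes rose (Cd74, H2-Eb1 and H2-DMa) and H2-DMb1 fell. In that comparison 41.8% of all tested genes were called, 19.1% higher and 22.7% lower. At 60 against 0 weeks H2-Eb1 and Cd74 rose and none fell, beside 32.8% of all tested genes called, 16.7% higher and 16.1% lower. H2-Eb1 and H2-DMb1 were also higher at 60 than at 12 weeks, a comparison with 38.3% of all tested genes called, 20.7% higher and 17.6% lower. A test over the 3 groups together (limma's F test) called H2-Eb1, H2-DMb1 and Cd74, 3 of the 5, and 56.7% of all tested genes. The comparisons against 0 weeks share their control arrays, and in these bulk samples fewer cells with a transcript and less of it per cell cannot be told apart.

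H2-Eb1, the beta chain of the H2-E molecule, had the widest range of the 5 tested genes. The 0 weeks arrays read -3.01, -3.59 and -4.87, the last of them not above background, the 12 weeks arrays -2.75, -2.33 and -2.34, and the 60 weeks arrays 0.51, 0.60 and 0.24. No 2 groups overlapped, and each later group lay above the one before it. Such separation of groups was common on these arrays: from 0 to 12 weeks 54.6% of all tested genes had it (24.9% higher, 29.7% lower), from 0 to 60 weeks 56.5% (27.6% higher, 28.9% lower), and from 12 to 60 weeks 47.3% (25.4% higher, 21.9% lower). H2-Eb1 rose by 1.35 ± 0.41 at 12 weeks (adjusted p = 0.0290, limma), which is 2.55-fold. At 60 weeks it rose by 4.27 ± 0.41 over 0 weeks (adjusted p = 0.000141), or 19.3-fold, and 69 of the 14034 tested genes had a larger rise. The step from 12 to 60 weeks was 2.92 ± 0.41 (adjusted p = 0.00119), with 66 genes above it.

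The rise of H2-Eb1 at 12 weeks was the weakest of these calls. It ended when replicate 2 of 0 weeks, replicate 2 of 12 weeks or replicate 3 of 12 weeks was left out (adjusted p = 0.0536, 0.0572 and 0.0785), and leaving out replicate 3 of 0 weeks, the array below background, brought the change to 0.83. It also ended with normexp background correction (0.39, adjusted p = 0.0544), with slide row as a block (1.07, adjusted p = 0.233) and in a fit to the 6 arrays of these groups (adjusted p = 0.0646). The calls at 60 weeks held in all 21 alternatives run for this gene, at 2.65 to 4.68 over 0 weeks and 2.26 to 3.03 over 12 weeks.

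The arrays lay on the slides in an order that follows the groups: row 1 of slide 1 held the 0 weeks arrays and replicate 1 of 12 weeks, row 2 held replicates 2 and 3 of 12 weeks with replicates 1 and 2 of 60 weeks, and replicate 3 of 60 weeks was on slide 2. Within row 1, H2-Eb1 differed by 1.07 between the single 12 weeks array and the 3 arrays of 0 weeks. Within row 2, it differed by 2.89 between the 2 arrays of 60 weeks and the 2 of 12 weeks. The 60 and 0 weeks groups share no row, so that comparison has no value within a row.

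Cd74 encodes the invariant chain, which fills the class II groove and escorts the molecule to endosomes. It read -4.03, -4.21 and -4.23 on the 0 weeks arrays, -2.28, -2.03 and -1.65 on those of 12 weeks and -2.17, -0.35 and -2.28 on those of 60 weeks, above background throughout. Every treated array lay above every 0 weeks array, and the treated groups overlapped, with replicate 2 of 60 weeks far above the other 2 of its group. Upward separation from 0 weeks was seen in 24.9% of all tested genes at 12 weeks and 27.6% at 60 weeks. Cd74 rose by 2.17 ± 0.46 at 12 weeks (adjusted p = 0.00663, limma) and by 2.55 ± 0.46 at 60 weeks (adjusted p = 0.00379), which are 4.49-fold and 5.87-fold. Without replicate 2 of 60 weeks the rise at 60 weeks was 1.93 on the log2 scale. Between 12 and 60 weeks it differed by 0.39 (95% interval -0.67 to 1.44, adjusted p = 0.541), a difference that turned to -0.24 without replicate 2 of 60 weeks. Both calls against 0 weeks ended with the slide row as a block (1.87 and 2.45, adjusted p = 0.0640 and 0.117), and normexp background correction brought the changes to 0.97 and 1.32, still called. Within row 1 the difference of the 12 weeks array was 1.87.

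H2-Ab1, the beta chain of the H2-A molecule, had 2 probes, neither above background at 0 weeks. The probe used for the tests, chosen for a higher mean over all 9 arrays that rests on its 0 weeks values below background, read -6.83, -5.34 and -6.01 before treatment, -3.38, -5.90 and -3.09 on the 12 weeks arrays and -4.72, -2.90 and -4.61 on the 60 weeks arrays. The other probe read -6.10, -7.03 and -6.91 before treatment, -3.49, -4.74 and -3.09 on the 12 weeks arrays and -4.36, -3.19 and -4.18 on the 60 weeks arrays. On both probes replicate 2 of 12 weeks was not above background while replicates 1 and 3 were, and the 60 weeks arrays were above background on 2 of 3 and 3 of 3. For a group below background only a bound can be given, computed against the lowest signal called above background on each array. By it the group mean of H2-Ab1 was at least 1.53-fold higher at 12 weeks and at least 1.58-fold higher at 60 weeks on the tested probe, and at least 1.95-fold and 1.78-fold on the other. Such bounds, here and below, compare group means and take no account of the spread between replicates. On the tested probe replicate 2 of 12 weeks (-5.90) lay below replicate 2 of 0 weeks (-5.34).

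The 2 probes differed in the test. The tested probe was not called (adjusted p = 0.0840 at 12 weeks and 0.0927 at 60 weeks, limma). The other probe was called in both (adjusted p = 0.00199 and 0.00303), and so was the mean of the 2 (adjusted p = 0.0119 and 0.0161). Without replicate 2 of 12 weeks the tested probe was called too (adjusted p = 0.00662 and 0.0226). With no 0 weeks array above background on either probe, and the gene tested only through its treated groups, these p-values give no size beyond the bounds. Between 12 and 60 weeks the difference was 0.05 (95% interval -1.79 to 1.89, adjusted p = 0.969), and its sign changed among the alternatives.

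H2-Aa, the alpha chain that pairs with H2-Ab1, was not above background on any of the 9 arrays. Its single probe read -6.64, -6.75 and -6.72 in the 0 weeks group, -7.19, -6.57 and -6.67 in the 12 weeks group and -6.28, -6.72 and -6.88 in the 60 weeks group, and these overlapped. The lowest signal called above background was -5.17 to -4.52 by array, so a change beneath that floor was not detectable. The genes of this locus are highly polymorphic between mouse strains, the labels name no strain, and how well this probe matches the allele of these organoids is not known here, so the reading does not show that the transcript was absent.

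H2-DMa and H2-DMb1 encode the chains of H2-DM, which removes the invariant-chain peptide, and their signals moved in opposite directions at 12 weeks. H2-DMb1 read 1.86, 1.81 and 1.81 in the 0 weeks group, -0.21, 1.27 and 0.07 in the 12 weeks group and 2.04, 2.50 and 1.87 in the 60 weeks group. The 12 weeks arrays were all below the other 6, with replicate 2 nearest to them. Separation in these directions was seen in 29.7% of all tested genes (12 against 0 weeks) and 25.4% (60 against 12 weeks). H2-DMb1 fell by 1.45 at 12 weeks (SE 0.35, adjusted p = 0.0115, limma) and was higher by 1.76 ± 0.35 at 60 than at 12 weeks (adjusted p = 0.00588); both calls held in all 21 alternatives. Within rows of the slide the differences were -2.04 (12 against 0 weeks) and 1.60 (60 against 12 weeks). At 60 against 0 weeks the difference was 0.31 (95% interval -0.49 to 1.11, adjusted p = 0.529). H2-DMb1 has a near-identical neighbour, H2-DMb2, whose own probe was too dim to be tested, and how the H2-DMb1 probe divides between them is not known here.

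H2-DMa read -3.32, -3.40 and -3.10 before treatment, -2.26, -3.12 and -2.22 on the 12 weeks arrays and -2.90, -3.17 and -3.14 on the 60 weeks arrays. Replicates 1 and 3 of 12 weeks stood above all other arrays, and replicate 2 lay among the 0 weeks values. The rise at 12 weeks was 0.74 ± 0.24 (adjusted p = 0.0349, limma), or 1.67-fold, and it ended in 9 of 22 alternatives, among them leaving out any array of 0 weeks (adjusted p = 0.0890, 0.106 and 0.0556) or replicate 1 or 3 of 12 weeks (0.112 and 0.111). It was 1.04 without replicate 2 of 12 weeks (adjusted p = 0.000455). At 60 weeks the difference from 0 weeks was 0.20 (95% interval -0.34 to 0.74, adjusted p = 0.546). The difference between 60 and 12 weeks was -0.54 (95% interval -1.08 to 0.00037, adjusted p = 0.103), and without replicate 2 of 12 weeks it was -0.83 and called (adjusted p = 0.00139).

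Ciita, the transactivator, was above background on 1 of the 9 arrays, replicate 1 of 0 weeks. Its probe read -3.72, -4.48 and -4.56 in the 0 weeks group, -5.75, -5.31 and -4.68 in the 12 weeks group and -5.13, -4.95 and -5.26 in the 60 weeks group. All 6 treated arrays lay below the 3 of 0 weeks, though 8 of these 9 readings were not above background. Such downward separation was common, in 29.7% of all tested genes at 12 weeks and 28.9% at 60 weeks. The filter on dim probes kept Ciita out of the tests, and with no filter neither comparison with 0 weeks was called (adjusted p = 0.0504 and 0.0986, limma). With 8 of 9 arrays below background, no size can be given for this difference. The probe carries the accession of 1 Ciita transcript among several, and which of the transcripts from its alternative promoters it detects is not given in the sources used here.

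**Figure D3:**
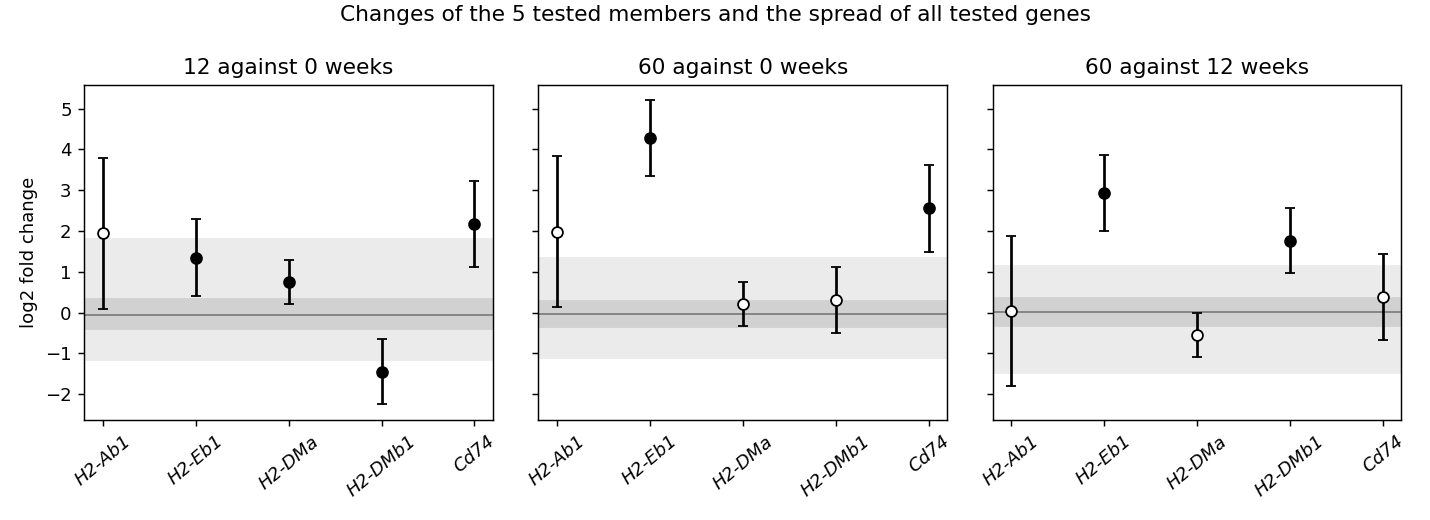
Log2 fold change (y axis) of the 5 tested genes in each comparison with its 95% interval; filled points had an adjusted p under 0.05. The dark and pale bands lie between the quartiles and between the 5th and 95th percentiles of all 14034 tested genes; H2-Eb1 at 60 weeks lies at 4.27 over 0 weeks and 2.92 over 12 weeks, outside the pale band. H2-Ab1 was below background at 0 weeks, so its points against 0 weeks are no measured size.

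**Figure D4:**
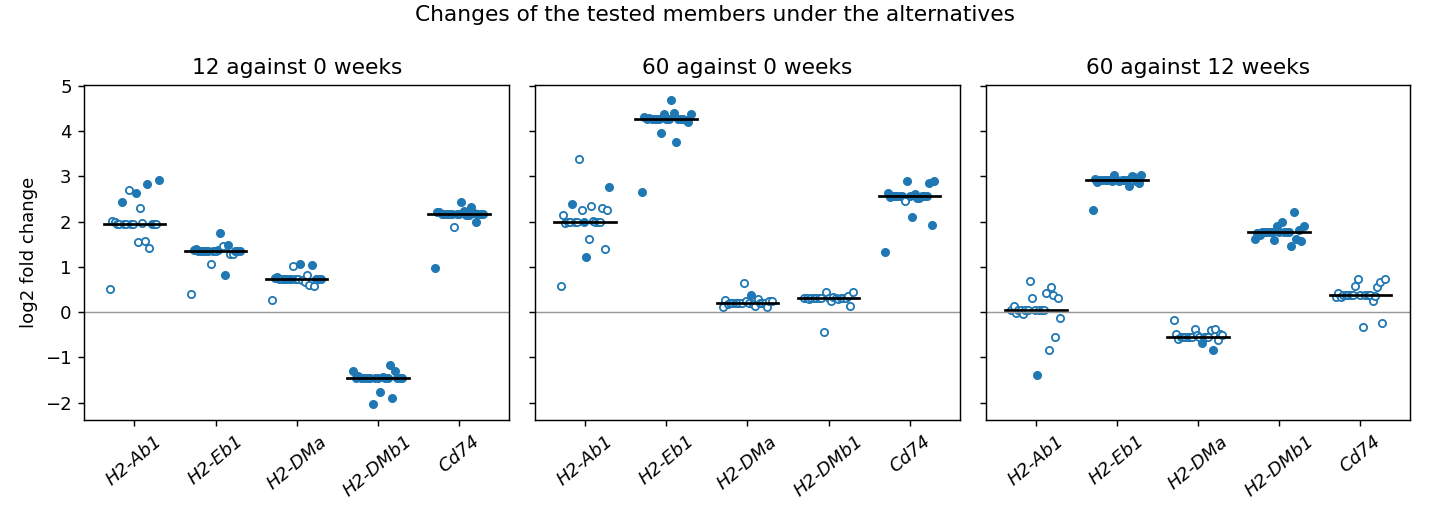
Log2 fold change (y axis) of the 5 tested genes under 21 or 22 other ways of processing or of choosing arrays (points, filled where the adjusted p was under 0.05), with black bars at the values given in the text. H2-Eb1 at 60 weeks stays at 2.65 or more over 0 weeks, H2-DMb1 at 12 weeks stays below -1, and the points of H2-Ab1 at 60 against 12 weeks lie on both sides of 0.

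Across the 9 arrays the tested genes did not share 1 pattern, though some pairs of them were alike. Between pairs Pearson r ran from -0.876 (H2-DMa with H2-DMb1) to 0.782 (H2-Ab1, in part below background, with Cd74). It was 0.752 for H2-Eb1 with Cd74 and -0.011 for H2-Eb1 with H2-DMa. The genes most like each, by Pearson r over the 9 arrays and given as a description, were Ccrl2 (0.981), Arhgap40 (0.976) and B4galt1 (0.975) for H2-Eb1, and Mapk11 (0.971), Rasal1 (0.971) and Slc35d1 (0.962) for Cd74. For H2-DMb1 they were Grin1 (0.998), Aldoc (0.992) and Tmco6 (0.991), and for H2-DMa they were Itfg2 (0.978), Ppcs (0.978) and Wfdc17 (0.975). None of these 12 genes was another of the 7, but so short a list does not show that the 7 were unlike each other. The 12 were the best of 14034 genes over 9 arrays that share 3 groups, so high values come with the choice.

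Among the other genes that handle class II peptides, the lysosomal proteases Ctss and Ctsl had the largest called rises at both times. The counts of this list and of those after it stand beside the shares of all tested genes: 19.1% higher and 22.7% lower at 12 weeks, 16.7% higher with 16.1% lower at 60 weeks, and 20.7% higher with 17.6% lower between 12 and 60 weeks. Of 18 genes of peptide loading, trafficking and turnover 14 were tested, of which 4 rose and 1 fell at 12 weeks and 4 rose and 0 fell at 60 weeks. At 60 against 12 weeks 2 rose and 3 fell. Ctss, cathepsin S, which makes the last cuts in the invariant chain, went from -2.49 ± 0.27 at 0 weeks to 0.66 ± 0.85 at 12 and 0.29 ± 0.19 at 60 weeks (SD, n = 3). Its rises were 3.15 ± 0.37 and 2.77 ± 0.37 (adjusted p = 0.000368 and 0.000878, limma). Ctsl, cathepsin L, a related protease, rose by 1.05 ± 0.11 at 12 weeks and 0.48 ± 0.11 at 60 weeks. Ctsd, cathepsin D, fell by 0.55 at 12 weeks, Ctsb, cathepsin B, rose by 0.37 at 60 weeks, and Ap1s1, a clathrin-adaptor subunit, by 0.35 at 12 weeks and 0.37 at 60 weeks. Ap1m1, another subunit of that adaptor, rose by 0.72 at 12 weeks and differed by -0.13 at 60 weeks (adjusted p = 0.676, limma). The class II modifiers H2-Oa and H2-Ob were too dim to be tested, and H2-Ea had no named probe.

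The factors that bind or regulate class II promoters were called in both directions at 12 weeks, where lower calls also outnumbered higher ones over all tested genes. Of 14 tested, 2 rose and 5 fell at 12 weeks, and 1 rose and 0 fell at 60 weeks. Rfxank, a subunit of the X-box complex RFX, fell by 1.16 at 12 weeks (adjusted p = 0.000858, limma) and was higher by 1.25 ± 0.16 at 60 than at 12 weeks. Nfyb, a subunit of the Y-box factor NF-Y, fell by 0.64 at 12 weeks and stood 0.80 ± 0.09 above 0 weeks at 60 weeks (adjusted p = 0.000364). Nfyc, another subunit of NF-Y, rose by 0.67 ± 0.20 at 12 weeks and Creb1, which binds beside the X box, by 0.93 ± 0.23. Prdm1, a repressor of Ciita, fell by 1.35 at 12 weeks and Hdac2, a histone deacetylase, by 0.59. At 60 against 12 weeks 5 rose and 2 fell, with Nfyb higher by 1.44 ± 0.09. Prdm1 had the largest of these rises, from a mean of -0.855 to 0.645 (adjusted p = 0.000807, limma), and Hdac2 rose by 0.61. At 60 weeks neither was called against 0 weeks, with differences of 0.15 for Prdm1 and 0.01 for Hdac2 (adjusted p = 0.587 and 0.948).

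The list of interferon-gamma signalling, the pathway that induces Ciita, holds both its activators and its inhibitors. Of 11 tested, 3 rose and 3 fell at 12 weeks, with a median change of 0.06, and 7 rose and 0 fell at 60 weeks, with a median of 0.61 beside -0.04 over all tested genes. The receptor chain Ifngr1 rose by 0.69 ± 0.14 and 1.02 ± 0.14, and the kinase Jak1 by 0.67 ± 0.09 and 0.88 ± 0.09. Jak2, the other kinase of the receptor, fell by 0.24 at 12 weeks and rose by 0.61 ± 0.09 at 60 weeks. Socs1 and Socs3, inhibitors of the pathway, rose by 0.83 ± 0.18 and 0.45 ± 0.11 at 60 weeks. Irf8, a partner of Irf1, was not above background at 0 weeks, passed the filter through the treated groups, and was at least 1.91-fold and 3.14-fold higher there. It is 1 of the 3 that rose at 12 weeks and of the 7 that rose at 60 weeks. Irf1, which binds a Ciita promoter, differed by 0.24 ± 0.17 at 12 weeks (adjusted p = 0.271, limma) and rose by 1.03 ± 0.17 at 60 weeks (adjusted p = 0.00215). The interferon-gamma gene itself, Ifng, was too dim to be tested.

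Other known targets of interferon-gamma rose in part. Of 12 tested, 1 of which (Irf1) is also in the signalling list, 5 rose and 0 fell at 12 weeks and 3 rose and 0 fell at 60 weeks. The guanylate-binding protein genes Gbp2 and Gbp3 rose by 2.27 ± 0.49 and 3.13 ± 0.72 at 12 weeks and differed by -1.54 and -2.23 between 60 and 12 weeks, both called. Wars, a tRNA synthetase gene, rose by 1.54 ± 0.12 and 1.53 ± 0.12. The 3 that rose at 60 weeks include Cxcl10, a chemokine for T cells. It was above background only at 60 weeks (2 of 3 arrays) and passed the filter through that group. There it was at least 1.59-fold higher than at 0 weeks. Cxcl9 and Ido1 were too dim to be tested.

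Co-stimulatory and checkpoint ligands, which set the outcome of class II recognition, were in part too dim to be tested. Of 6 tested, 5 rose at 12 weeks and 4 at 60 weeks, and 0 fell; at 60 against 12 weeks 1 rose and 2 fell. The 5 include Pdcd1lg2, the checkpoint ligand related to Cd274, which was above background only at 12 weeks (2 of 3 arrays), passed the filter through that group, and was at least 1.29-fold higher there than at 0 weeks. Cd274, the checkpoint ligand PD-L1, rose from -2.60 ± 0.16 to -0.83 ± 0.02 at 12 and -0.79 ± 0.24 at 60 weeks (SD, n = 3). Icosl rose by 0.59 ± 0.14 at 12 weeks and by 2.42 ± 0.14 at 60 weeks (adjusted p = 8.81e-06, limma). Icam1, an adhesion molecule, rose by 1.10 ± 0.14 and 0.69 ± 0.14. Cd86 and Cd40, defining co-stimulators of professional antigen-presenting cells, were too dim to be tested, and Cd80 was tested and not called at either time.

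**Figure D5:**
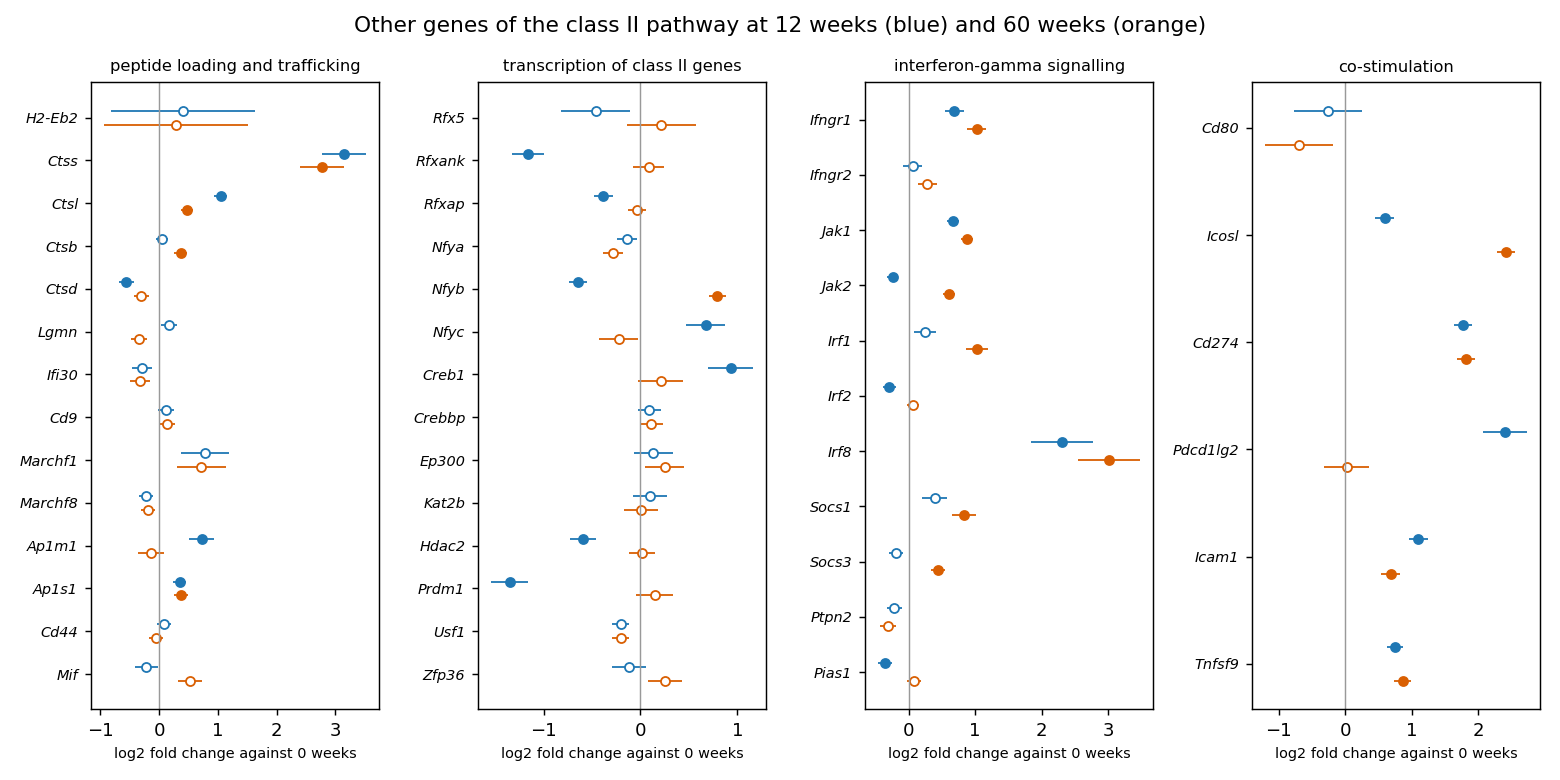
Log2 fold change against 0 weeks (x axis) of the tested genes of 4 pathway lists at 12 weeks (blue) and 60 weeks (orange), with SE bars; filled points had an adjusted p under 0.05. Ctss lies at 3.15 and 2.77, and 7 of the 11 interferon-gamma signalling genes are filled at 60 weeks against 6 at 12 weeks, 3 of those lower. Over all tested genes 32.8% were called at 60 weeks (16.7% higher) and 41.8% at 12 weeks (22.7% lower). Irf8 and Pdcd1lg2 were not above background at 0 weeks, so their points are no measured size.

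The class II genes other than Cd74 and Ciita lie in 1 stretch of chromosome 17. Between them lie Psmb9, Tap1, Psmb8 and Tap2, which serve class I presentation. From H2-Oa to H2-Eb2 the RefSeq table holds 14 protein-coding genes, 9 of them not among the 7, and 6 of those 9 were tested: 1 was called higher at 12 weeks, 2 at 60 weeks, and 0 lower at either, a share at 12 weeks near the 19.1% of all tested genes. Psmb8, an immunoproteasome subunit between H2-DMb1 and H2-Ab1, went from -4.24 ± 0.35 to 0.32 ± 0.31 and 1.18 ± 0.07 (SD, n = 3), rises of 4.56 ± 0.20 and 5.42 ± 0.20 (adjusted p = 2.10e-06 and 1.00e-06, limma). Its 0 weeks arrays were above background but near the lowest signal called so on them (-4.78 to -4.65). The size of its rises is therefore uncertain, and its values under the alternatives are not given here. Tap1, which pumps peptides to class I, rose by 0.68 ± 0.20 at 60 weeks, while Psmb9, beside it, differed by -0.20 ± 0.18 (adjusted p = 0.426). Among 17 tested genes of class I presentation, 5 rose and 5 fell at 12 weeks and 6 rose and 0 fell at 60 weeks. The transactivator of class I, Nlrc5, was too dim to be tested.

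Markers of the cells that make class II constitutively were measured beside these genes. The B cell list (6 genes) had 0 members above background on 2 of 3 arrays of any group, and its summed linear signal, in units of the 75th percentile, was 0.101 to 0.115 at 0 weeks, 0.0769 to 0.100 at 12 weeks and 0.0889 to 0.134 at 60 weeks. Ptprc, of all leukocytes, and Itgax, of dendritic cells, were not above background on any array. Of the 7 leukocyte markers, 3, 2 and 2 were above background in the 3 groups, with sums of 2.73 to 2.95, 2.44 to 2.72 and 2.71 to 3.13. That sum was carried by Arhgdib (mean level 1.35, 1.23 and 1.47), which was not called in any comparison. Of the 3 tested, 0 rose and 1, Cd53, fell at each treated time. Cd53 was above background on the 3 arrays of 0 weeks only and passed the filter through them. It was at least 2.30-fold higher there than at 12 weeks and 2.06-fold higher than at 60 weeks.

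Of 17 dendritic cell and macrophage markers, 7, 7 and 8 were above background at 0, 12 and 60 weeks, and 8 were never so. Their summed signal was 18.7 to 24.9 at 0 weeks, 28.8 to 52.5 at 12 weeks and 39.2 to 47.0 at 60 weeks, so it was higher on all 6 treated arrays than on the 3 of 0 weeks, as Cd74 was. That sum was carried by Itgam, an integrin of myeloid cells, and Mrc1, the mannose receptor, while its tested members were called in both directions. Of its 8 tested members 1 rose and 1 fell at 12 weeks and 2 rose and 1 fell at 60 weeks, with a median change of 0.07 and -0.34. Mrc1 rose by 1.58 ± 0.29 and 2.72 ± 0.29, and Itgam differed by 0.69 ± 0.32 and 0.72 ± 0.32 (adjusted p = 0.114 and 0.119, limma). Zbtb46, a factor of dendritic cells, fell by 0.77 at 12 weeks, and Csf1r, the macrophage growth factor receptor, fell by 0.37 at 60 weeks. The part of this list in the changes of Cd74 and H2-Eb1 was not tested.

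Some markers of other cells and of epithelial differentiation rose or fell at 12 weeks and turned back by 60 weeks, while others were not called. Among 8 fibroblast markers 2 were above background in each group, but not the same 2. Vim, vimentin, was above background only at 12 weeks, on all 3 arrays, so it passed the filter through that group. It was at least 4.73-fold higher there than at 0 weeks. Col1a1, a collagen chain, was above background at 0 and 60 weeks only and passed through those groups. It was at least 3.15-fold higher at 0 than at 12 weeks. Col1a2, another collagen chain, was not called in any comparison. Of 13 tested epithelial markers 4 rose, 1 fell and 8 were not called at 12 weeks. Car1 and Krt20, of differentiated colonocytes, rose by 4.03 ± 1.16 and 1.98 ± 0.57 and Lgr5, of stem cells, fell by 2.01. At 60 against 12 weeks these 3 differed by -6.76, -3.29 and 2.75, all called. The part of these changes in the fall and return of H2-DMb1 was not tested. Epcam, which marks epithelium, was above background on all 9 arrays, and so were 13 of 14 epithelial markers on at least 2 arrays of each group, with sums of 2166 to 2643. Of 5 endothelial markers 2 were above background in each group. T cell and innate lymphoid markers summed to 8.50 to 15.4 over all arrays, with Cd3e above background on all 9, and 3 of the 5 tested fell at 12 weeks. Other than Ptprc, Itgax, Epcam, Csf1r and Cd3e, the markers given singly here were chosen after their values were seen.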

How the data were processed

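RNA of 9 samples was labelled with Cy3 and hybridised to 9 arrays. Per the file headers, the authors quantified them with Agilent Feature Extraction 10.7.3.1 (protocol GE1_107_Sep09; the array design cites mm9:NCBI37:Jul2007). Each deposited scanner file gives the intensity of every spot after background subtraction, with no scaling across arrays. A value table was also deposited, whose signal covers 42530 of 55681 probes and, within 1% for 99.7% of probes on each array, equals the intensity divided by a constant near the 75th percentile of the array, on a linear scale; its source is not given in the sources used here. Column medians were 0.0668, 0.0719, 0.0705, 0.0619, 0.0681, 0.0733, 0.0673, 0.0695 and 0.0582 in sample order.

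Spots called outliers (117 to 163 of 59305 per array, none of the 8 probes described) were left out, spots of a probe averaged, and log2 taken relative to the 75th percentile; 0 spots were saturated. Probes were named by RefSeq accession (GRCm38.p6; 27235 with 1 symbol, 28446 with none), and each gene took the probe with the highest mean over all arrays among those that passed the filter. limma 3.58.1 in R 4.3.3 fitted a mean per group to the 9 arrays together, with no replicate block and two-sided tests, and the procedure was tested on simulated data. All 7 genes are named. Genes named from each list came mostly from the 4 called genes per comparison with the lowest adjusted p, and not all of those are named. A few dim, uncalled or lower-ranked called members were chosen after their values were seen. The 3 most similar genes were named per gene above background in every group. Genes, lists and members were chosen with earlier results of these data known. A few list members are not reported here and are left out of the list counts. Precision is limited by 3 arrays per group.

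Alternatives were another background correction, normalization, percentile, filter, probe rule, value source, blocks, array weights, 2 groups only and leaving out each array. The scanner files hold no mean spot signal, so normexp was run on the median signal, an alternative chosen after seeing the data, as was the other H2-Ab1 probe.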

Additional observations from a re-analysis of the deposited data

How the results depend on the processing

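The calls of H2-Eb1 at 60 weeks against either group and of H2-DMb1 at 12 against 0 and 60 against 12 weeks held in all 21 alternatives run for each, and the calls of Cd74 in 20 of 21. The number of these genes called at 12 against 0 weeks was 4, and 2 with normexp (offset 50), with only the 2 groups compared and with the deposited value table, which lacks the probes of Cd74 and H2-DMb1, so that 3 were tested. It was 1 with the slide row as a block and 2 to 4 when single arrays were left out. With array weights and with the mean of probes it was 5. With no filter it was 3, and also 3 with probes above background on all arrays (3 tested). At 60 against 0 weeks it was 2, and 1 with the value table, with probes above background on all arrays (3 tested) and with the row block, 4 with array weights, and 2 to 3 without single arrays. In that comparison it was also 3 with the mean of probes and with only the 2 groups compared. At 60 against 12 weeks it was 2, and 1 with the value table and with probes above background on all arrays, 4 with array weights, and 2 to 3 without single arrays. Over all genes, 5860, 4600 and 5378 were called; with array weights, whose estimate did not fully converge, 9301, 8788 and 9950 were, and with the row block 1392 and 3468 were called in the last 2 comparisons. Leaving out single arrays gave 4228 to 7405, 3195 to 6022 and 3624 to 7072. The causes were not tested, except that fewer of these genes were tested where said.

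Sign changes concerned differences not called in the fit of the report. H2-Ab1 at 60 against 12 weeks (0.05) was -0.0077 with the percentile over bright probes, -0.044 with the mean of its probes, -0.14 with its other probe, -1.39 with array weights (called, adjusted p = 0.0160; range 0.0160 to 0.995 among filtered fits), and -0.84 (without replicate 2 of 12 weeks) to 0.56 over single arrays left out, with -0.54 without replicate 2 of 60 weeks. Cd74 at 60 against 12 weeks was -0.33 with array weights and -0.24 to 0.73 over single arrays left out, lowest without replicate 2 of 60 weeks, and H2-DMb1 at 60 against 0 weeks was -0.44 with the row block.

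The labels give same-numbered replicates only a number in common, and whether they were paired is not known. The correlations of their deviations from the group means ran from -0.08 to 0.20, and those of differently numbered replicates from -0.24 to 0.16. With the replicate block 5795, 4453 and 5246 genes were called and 4, 2 and 2 of the genes described here, and it ended or made no call among them. Slide as a block repeats the fit without replicate 3 of 60 weeks.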
